A study of Mus musculus with 24 samples.

Results

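Livers of mice that carry a human CAR gene and of wild type mice were compared for how far their RNA levels moved between newborn and adult life without any CAR ligand. For each gene the change between day 60 and day 5 was taken within each genotype, and the change in wild type (WT) was subtracted from the change in the human CAR mice (hCAR-TG), which is called the maturation difference here. A positive maturation difference means that the gene rose more, or fell less, in hCAR-TG liver. It rests on the 12 libraries of corn oil animals among the 24 libraries of the series, 3 libraries in each of 4 groups: hCAR-TG at day 60, hCAR-TG at day 5, WT at day 60 and WT at day 5. Per the labels all animals were C57BL/6, the genotypes were a human CAR knock-in and wild type, the tissue was liver, and all 12 received corn oil and no CAR ligand. The labels state no corn oil dose, do not say how the knock-in was made or whether the replicates of a group are separate animals, and p-values therefore measure only the spread between these samples.

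CAR, the constitutive androstane receptor, is a nuclear receptor encoded by Nr1i3 that sits in the cytoplasm of hepatocytes until a drug or other chemical moves it into the nucleus. There it switches on genes for the clearance of drugs, bile acids and hormones, among which Cyp2b10 is the usual readout in mice. Liver changes profoundly after birth: blood formation, which fills the fetal liver, comes to an end, hepatocytes stop dividing, and most cytochrome P450 (P450) enzymes reach their adult levels. The maturation difference describes how these changes differed between the 2 genotypes.

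The targeted gene set the genotypes apart in every library. Mouse Nr1i3 stood at 6.94, 9.23 and 9.93 FPKM (fragments per kilobase of transcript, scaled to the mapped fragments of the library) in hCAR-TG day 60 livers and 18.7, 20.4 and 27.7 FPKM in hCAR-TG day 5 livers. Its level was 53.4, 74.2 and 76.9 FPKM in WT day 60 livers and 68.6, 61.6 and 43.8 FPKM in WT day 5 livers. No hCAR-TG library reached any WT library, and the hCAR-TG adults were also below the hCAR-TG newborns, while the WT ages overlapped. Its maturation difference was -1.49 ± 0.26 (log2 of FPKM + 1, ± SE, limma adjusted p = 0.00108); human CAR transcripts need not align to mouse Nr1i3, so this is no measure of human CAR. Nr1i2, which encodes the related drug receptor PXR, stood at 22.7 ± 1.22 and 20.4 ± 4.64 FPKM in hCAR-TG day 60 and day 5 livers, against 22.3 ± 2.85 and 20.3 ± 2.54 FPKM in WT day 60 and day 5 livers (mean ± SD, n = 3 each). Its maturation difference, 0.03 ± 0.16, did not pass the test (limma adjusted p = 0.941).

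Hepatocyte markers made up a large share of the RNA in all 12 libraries: the summed FPKM of 20 such genes was 71436 to 80427 in hCAR-TG day 60 and 119008 to 133780 in hCAR-TG day 5 livers, against 66801 to 77953 in WT day 60 and 129861 to 141088 in WT day 5 livers. Xist was at most 0.0139 FPKM and the Y-linked Ddx3y was 3.28 to 11.99 FPKM, so male RNA was present in each of the 12. Of these, 2 libraries stood apart. The third hCAR-TG day 5 replicate deviated most from its group (0.26 as the root mean square over genes on the log2 scale, against 0.098 to 0.18 in the other 23 libraries) and had the lowest Ddx3y, so counts are also given without it. The second WT day 5 replicate held 380.7 summed FPKM of 26 pancreatic enzyme genes, against 18.0 and 49.8 in its group. The read file names in the labels end in a number of unstated meaning, which is the same for all libraries of a corn oil group except in hCAR-TG day 5 and is shared by no 2 of these groups, so anything it stands for cannot be told apart from genotype and age.

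Most of the liver's passage to adulthood was common to both genotypes. Of 12282 tested genes, 8788 (71.6%) changed with age in hCAR-TG liver, with 2979 higher (24.3%) and 5809 lower (47.3%). In WT liver 8617 changed (70.2%), with 3101 higher (25.2%) and 5516 lower (44.9%; limma, adjusted p under 0.05). Both changes passed the test for 7585 genes, and 7535 of these went in the same direction. Across the 12282 genes the 2 changes, which share no library, had a Pearson r of 0.944, where genes are not independent replicates. The maturation difference itself passed for 852 genes (6.94%), 258 higher (2.1%) and 594 lower (4.84%), and it was at least 2-fold for 44 of the higher and 121 of the lower genes. Counts of the maturation difference in the gene lists below are to be read beside these shares of 2.1% higher and 4.84% lower. The median of all genes was -0.03, and the median size of the called differences was 0.57 on the log2 scale. With FPKM rescaled by the median of ratios the split was 362 higher and 487 lower, so that 42.6% of calls were higher instead of 30.3%. Without the third hCAR-TG day 5 replicate 1228 genes passed, 737 of them among the 852. A fit of the 12 corn oil libraries alone, with fewer samples behind the spread, called 288, 92 higher and 196 lower, and the calls of most gene lists were fewer in it. At single ages, hCAR-TG and WT liver differed in 602 genes at day 60 (4.9%), 375 higher (3.05%) and 227 lower (1.85%), and in 1297 at day 5 (10.6%), 1018 higher (8.29%) and 279 lower (2.27%). The day 60 count was 336 without the first hCAR-TG and 361 without the second WT library, and the day 5 count was 801 without the first and also 801 without the second WT library. In a whole tissue, fewer cells of a type and less RNA per cell cannot be told apart.

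**Figure D1:**
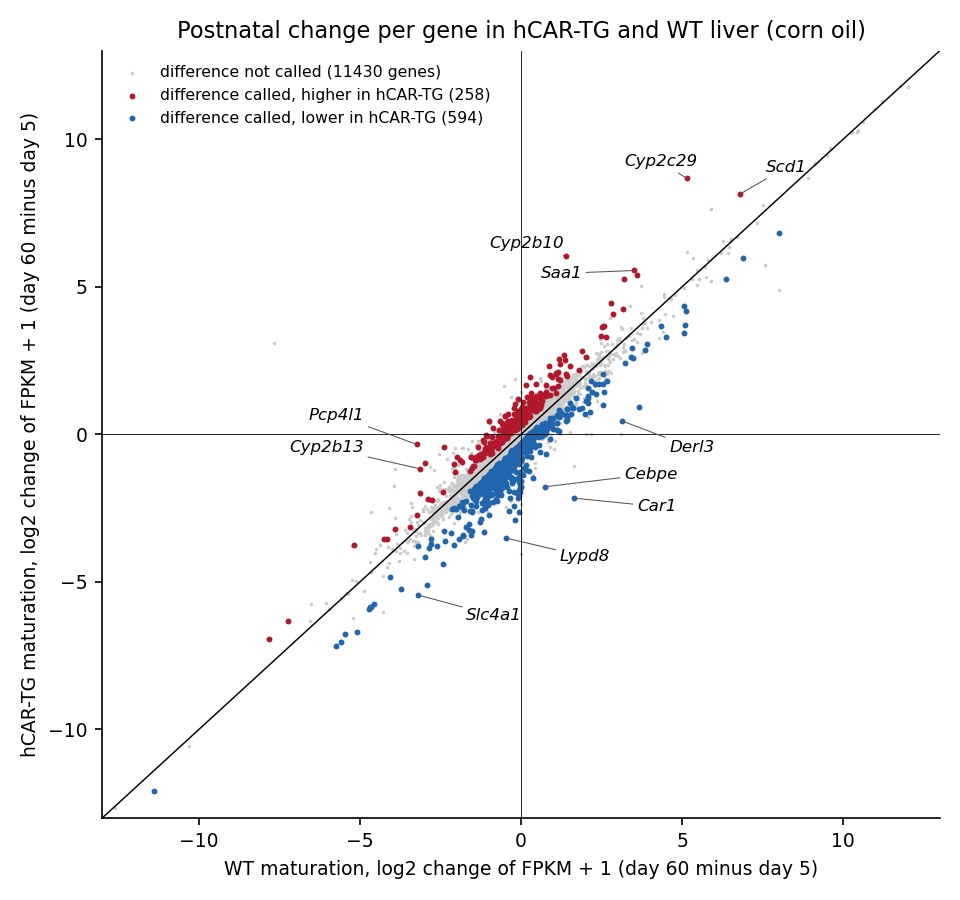
Log2 change of FPKM + 1 between day 60 and day 5 for each of 12282 genes, in hCAR-TG liver on the vertical axis and in WT liver on the horizontal axis, with the line of equal change; red points are the 258 genes with a higher and blue points the 594 genes with a lower maturation difference. Most genes lie along the line, and Cyp2b10, Cyp2c29 and Pcp4l1 lie far above it while Car1, Lypd8, Derl3 and Slc4a1 lie below it.

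The 2 largest positive differences were those of P450 genes that adult hCAR-TG liver held at high levels. Cyp2b10, whose enzyme oxidizes barbiturates and many other drugs, stood at 241, 208 and 227 FPKM in hCAR-TG day 60 livers and 5.22, 1.22 and 1.98 FPKM in hCAR-TG day 5 livers. It had 9.31, 11.9 and 17.4 FPKM in WT day 60 livers and 3.30, 5.57 and 3.92 FPKM in WT day 5 livers. The hCAR-TG adults were above every other library, and the newborn groups overlapped. The maturation difference was 4.65 ± 0.36 (limma adjusted p = 2.01e-07), of which the genotypes differed by 4.07 at day 60 (adjusted p = 5.4e-09) and by -0.58 at day 5 (adjusted p = 0.17). Cyp2c29, a P450 gene of steroid and fatty acid oxidation, stood at 2276, 2379 and 2614 FPKM in hCAR-TG day 60 livers and 6.19, 2.13 and 8.28 FPKM in hCAR-TG day 5 livers. It measured 771, 1031 and 1035 FPKM in WT day 60 livers and 40.1, 39.1 and 10.4 FPKM in WT day 5 livers. Its 4 groups did not overlap: hCAR-TG was the higher genotype at day 60 and the lower one at day 5. Its maturation difference was 3.53 ± 0.55 (adjusted p = 0.000592), with the day 5 part at -2.16 (adjusted p = 0.0012) and the day 60 part at 1.37 (adjusted p = 0.051). Reads of close relatives in the Cyp2b, Cyp2c, Cyp3a, Gstm, Sult2a, globin and Defa families are hard to assign, so values of single members are uncertain.

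The 250 bases before the start of both genes are shown because they are the genes with the largest positive differences. They were taken from RefSeq (GRCm38.p6): chr7:25897408-25897657, plus strand, for Cyp2b10 and chr19:39286835-39287084, plus strand, for Cyp2c29. Capitals mark the nuclear receptor hexamer AGGTCA on either strand (TGACCT on the other), which 14% of 32851 windows of the same length hold. Response elements of CAR that are known for Cyp2b10 lie further upstream, outside these windows.
Cyp2b10: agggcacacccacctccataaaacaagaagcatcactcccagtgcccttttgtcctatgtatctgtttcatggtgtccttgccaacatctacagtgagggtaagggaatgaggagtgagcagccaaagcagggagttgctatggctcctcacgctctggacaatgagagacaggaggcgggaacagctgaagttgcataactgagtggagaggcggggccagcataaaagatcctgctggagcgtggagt
Cyp2c29: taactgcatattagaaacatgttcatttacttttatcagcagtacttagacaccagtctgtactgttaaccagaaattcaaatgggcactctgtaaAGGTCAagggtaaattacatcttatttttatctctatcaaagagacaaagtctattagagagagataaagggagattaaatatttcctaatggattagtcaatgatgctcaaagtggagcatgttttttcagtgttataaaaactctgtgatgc
The Cyp2c29 window held 1 such hexamer, which begins 154 bases before the start, and the Cyp2b10 window held 0. A match describes letters only.

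Of 41 genes known as CAR targets in adult liver, 7 had a higher and 3 a lower maturation difference. Their median was 0.17, against -0.03 for all genes. Leaving out 1 library gave 5 to 10 higher and 2 to 5 lower calls. Higher calls were 5 without the first or the second WT day 5, the first or the second WT day 60 or any hCAR-TG day 60 replicate. The counts were 9 higher and 2 lower without the third hCAR-TG day 5 replicate, and 5 lower without the first WT day 60 replicate. With the 12 libraries alone 4 were higher and 2 lower. Cyp2b13, a P450 gene that is more abundant in female liver, stood at 7.27, 5.97 and 6.50 FPKM in hCAR-TG day 60 livers and 18.0, 16.7 and 13.6 FPKM in hCAR-TG day 5 livers. WT levels were 0.26, 0.74 and 2.01 FPKM in WT day 60 livers and 15.4, 13.8 and 17.9 FPKM in WT day 5 livers. The newborn groups overlapped, and the hCAR-TG adults kept a level that no WT adult reached (1.98 ± 0.27, adjusted p = 0.000107). Gstm3, for a glutathione S-transferase that couples electrophiles to glutathione, stood at 159, 119 and 120.1 FPKM in hCAR-TG day 60 livers and 10.3, 9.03 and 9.29 FPKM in hCAR-TG day 5 livers. The gene had 52.6, 55.9 and 62.9 FPKM in WT day 60 livers and 8.56, 9.23 and 8.60 FPKM in WT day 5 livers. It rose in both genotypes and ended higher in every hCAR-TG adult (1.09 ± 0.20, adjusted p = 0.00151). Cyp2c50 (2.09 ± 0.57, adjusted p = 0.0352) and Cyp2c54 (1.81 ± 0.53, adjusted p = 0.048) were called in the fit of all libraries and in only 5 of the 12 fits that leave out 1 library. The UDP-glucuronosyltransferase gene Ugt2b35 was also higher (0.54 ± 0.13). Lower were Gadd45a, a growth arrest and stress gene (-0.77 ± 0.14), Ephx1, for microsomal epoxide hydrolase (-0.57 ± 0.12), and Abcc2, for the efflux pump of bilirubin conjugates into bile (-0.31 ± 0.09). Cyp3a11, an abundant drug-oxidizing P450 gene, did not pass at -0.14 ± 0.16 (adjusted p = 0.695).

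**Figure D2:**
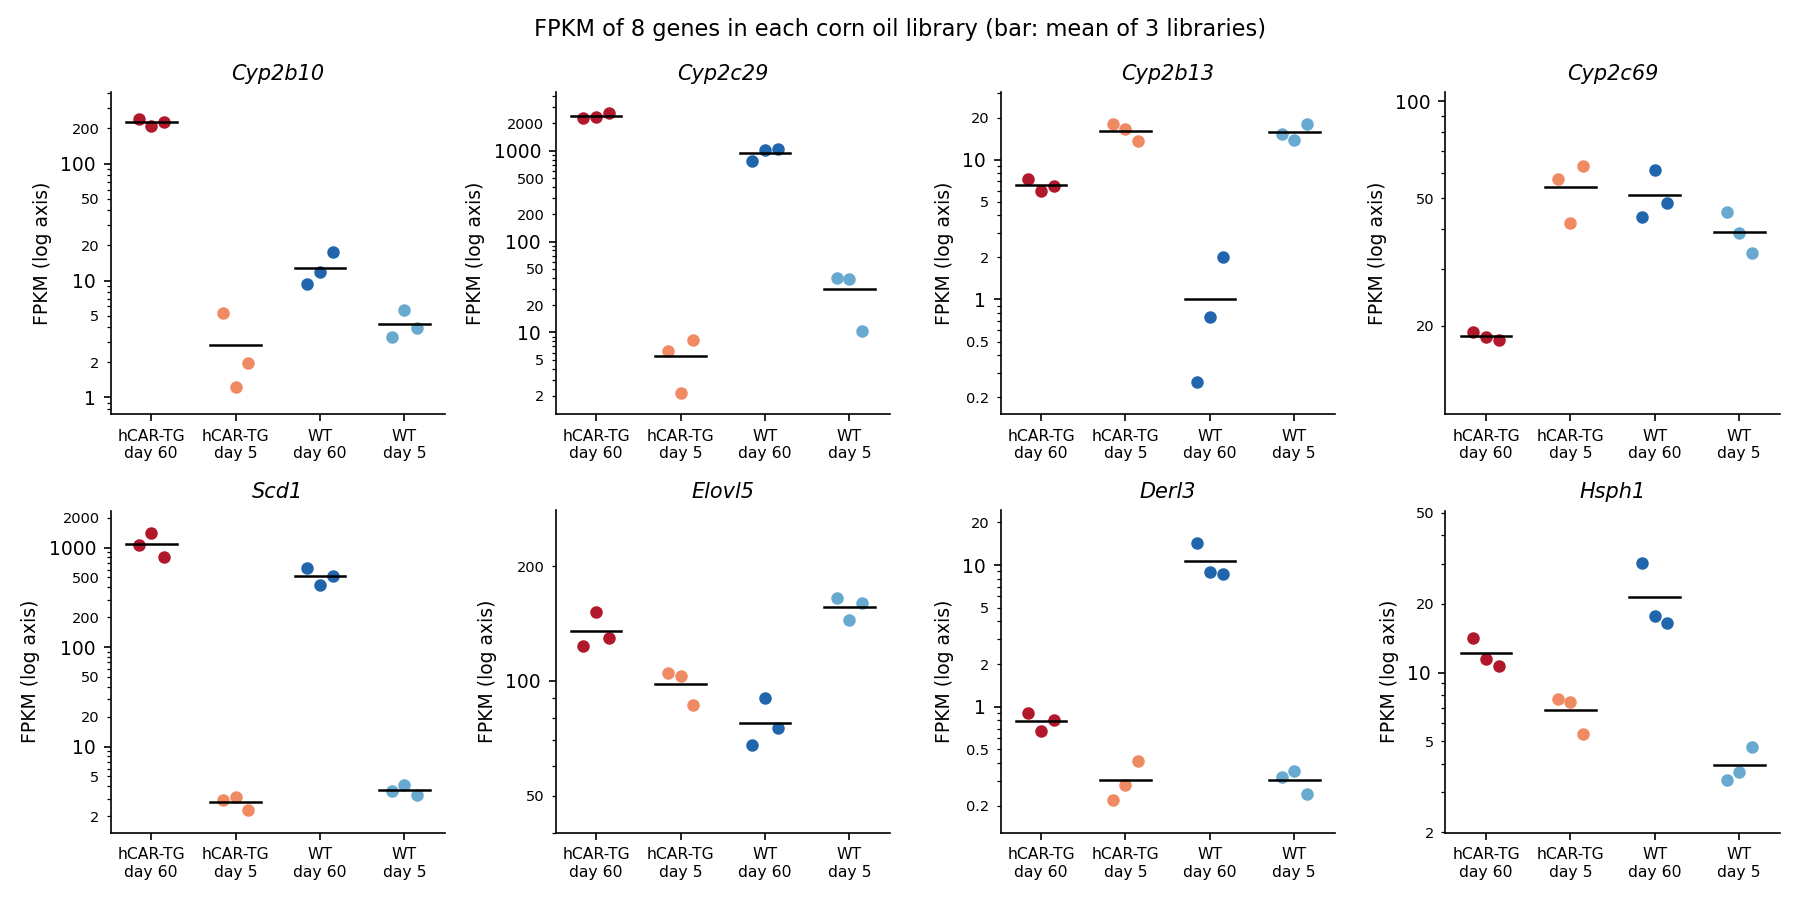
FPKM of 8 genes on log axes in each corn oil library, by group, with points for libraries and bars for the mean of 3 libraries. Cyp2b10 is at 208 to 241 FPKM in hCAR-TG day 60 livers and at most 17.4 FPKM in all other groups, and Derl3 is at 8.65 to 14.3 FPKM in WT day 60 livers and at most 0.90 FPKM in all other groups.

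The P450 list as a whole, Cyp2b10 included, held more lower than higher calls. Among 57 P450 genes 5 had a higher and 14 a lower maturation difference, with a median of -0.31 (6 and 14 without the third hCAR-TG day 5 replicate; 3 higher in each of 6 fits that leave out a library, those without the first or the second WT day 5, the second WT day 60 or any hCAR-TG day 60 library; 3 and 6 with the 12 libraries alone). Lower calls numbered 10 to 19 when any 1 library was left out. Most of the family matured upward in both genotypes. In hCAR-TG liver 41 of the 57 rose and 13 fell, against 24.3% and 47.3% of all tested genes. In WT liver 46 rose and 7 fell, against 25.2% and 44.9% of all tested genes. Cyp2c69 stood at 19.2, 18.5 and 18.1 FPKM in hCAR-TG day 60 livers and 57.4, 41.8 and 62.8 FPKM in hCAR-TG day 5 livers. In WT it had 43.7, 61.1 and 48.3 FPKM in WT day 60 livers and 45.3, 38.9 and 33.7 FPKM in WT day 5 livers. The hCAR-TG adults were below all other libraries (-1.83 ± 0.19, adjusted p = 2.51e-06). Its neighbours in the Cyp2c family, Cyp2c40 (-1.44 ± 0.15), Cyp2c67 (-0.79 ± 0.17) and Cyp2c68 (-0.70 ± 0.13), were lower as well, and so were Cyp3a59 (-1.29 ± 0.13), Cyp3a41a (-1.19 ± 0.28) and Cyp3a25 (-0.49 ± 0.13). For Cyp3a59 the genotypes differed in adults, with 25.6 to 26.5 FPKM in hCAR-TG and 65.2 to 89.3 FPKM in WT day 60 livers, and newborn hCAR-TG livers at 14.96 to 17.5 FPKM were near the 17.4 to 19.4 FPKM of newborn WT livers.

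Other P450 genes differed at the newborn end. Cyp2f2, a P450 of periportal hepatocytes that activates naphthalene, stood at 774, 637 and 660 FPKM in hCAR-TG day 60 livers and 43.7, 69.9 and 80.7 FPKM in hCAR-TG day 5 livers. Its level was 782, 769 and 838 FPKM in WT day 60 livers and 20.1, 27.2 and 22.2 FPKM in WT day 5 livers. Newborn hCAR-TG livers were all above newborn WT livers, so the rise to adult levels was smaller (-1.62 ± 0.23, adjusted p = 0.000184), and at day 60 the genotypes differed by -0.21 (adjusted p = 0.6). Cyp4f14, a fatty acid and leukotriene hydroxylase, had the same order (-1.20 ± 0.29), with 8.02 to 13.7 FPKM in hCAR-TG and 2.74 to 6.10 FPKM in WT day 5 livers. Cyp2d9 (-0.90 ± 0.24), Cyp2d12 (-0.80 ± 0.21) and Cyp2u1 (-0.96 ± 0.20) were also lower.

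Carboxylesterases, which split ester drugs and lipids, were divided. Of 61 other phase I genes 5 were higher and 7 lower, against 2.1% higher and 4.84% lower of all tested genes. With the 12 libraries alone 1 was higher and 4 lower. Ces3a stood at 825, 883 and 887 FPKM in hCAR-TG day 60 livers and 69.3, 73.3 and 53.9 FPKM in hCAR-TG day 5 livers. It had 1163, 1143 and 838 FPKM in WT day 60 livers and 27.5, 25.6 and 35.4 FPKM in WT day 5 livers. Newborn hCAR-TG livers were above newborn WT livers without overlap, while the adult groups overlapped (-1.39 ± 0.26, adjusted p = 0.00213). Ces3b (-0.93 ± 0.19) and Ces1f (-0.92 ± 0.21) were lower with it, whereas Ces2e (0.63 ± 0.15), Ces2g (0.48 ± 0.13) and the flavin monooxygenase gene Fmo2 (1.0 ± 0.22) were higher. Among the 61 the higher calls were 3 without the second or the third WT day 5, the second or the third WT day 60, or the second or the third hCAR-TG day 60 replicate.

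Among conjugating enzymes, sulfotransferase genes were higher or did not pass. Of 16 genes that passed the filter on low values, 5 had a higher maturation difference and 0 a lower one (also 0 at an unadjusted p under 0.05), with a median of 0.31, and all 5 belong to the Sult2a group, which sulfates bile acids and steroids. Sult2a1 stood at 0, 0 and 0.017 FPKM in hCAR-TG day 60 livers and 65.4, 77.1 and 99.6 FPKM in hCAR-TG day 5 livers. It measured 0, 0 and 0.0069 FPKM in WT day 60 livers and 182, 161 and 119 FPKM in WT day 5 livers. The gene was at or near 0 in adults of both genotypes, so its difference of 0.93 ± 0.25 (adjusted p = 0.0306) is that of the newborns, where WT was higher without overlap. Sult2a5 (1.44 ± 0.14, adjusted p = 1.96e-06), Sult2a2 (0.87 ± 0.22), Sult2a6 (0.70 ± 0.13) and Sult2a4 (0.69 ± 0.15) had the same pattern of low adult levels. Of the 5, 3 were called with the 12 libraries alone, and 3 without the first or the second WT day 5, the second hCAR-TG day 5 or the second hCAR-TG day 60 replicate. Among 22 glutathione S-transferase genes 3 were higher and 2 lower (6 higher without the third hCAR-TG day 5 replicate; 1 lower with the 12 libraries alone): with Gstm3, Gstm7 (0.70 ± 0.11) and Gstm6 (0.60 ± 0.11) were higher, and Gsto1 (-0.97 ± 0.18) and Mgst2 (-0.78 ± 0.18) were lower. UDP-glucuronosyltransferases rose in 18 of 19 cases in hCAR-TG and 17 of 19 in WT liver, against 24.3% and 25.2% of all tested genes. Of their maturation differences Ugt2b35 was higher and Ugt2b37 lower (-0.36 ± 0.10), the second in 2 of the 12 fits that leave out 1 library. With the 12 libraries alone limma called 0 of the 19.

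Transporters differed in both directions. Of 23 uptake transporters 3 were higher and 4 lower, against 2.1% higher and 4.84% lower of all tested genes (2 higher and 0 lower with the 12 libraries alone; 2 lower without the first WT day 5, the second WT day 60, the second hCAR-TG day 5 or the second hCAR-TG day 60 replicate). Slc22a7, for the organic anion transporter OAT2, stood at 21.9, 30.6 and 22.5 FPKM in hCAR-TG day 60 livers and 16.7, 17.6 and 11.6 FPKM in hCAR-TG day 5 livers. WT levels were 25.8, 22.9 and 19.9 FPKM in WT day 60 livers and 26.8, 29.4 and 35.1 FPKM in WT day 5 livers. The adults overlapped and the hCAR-TG newborns were the lowest group (1.07 ± 0.20, adjusted p = 0.00199). Slc17a4, for an organic anion transporter, was higher (1.10 ± 0.16), and Slc22a5, for the carnitine transporter OCTN2, was lower (-0.66 ± 0.14). Of 18 efflux transporters 0 were higher (2 at an unadjusted p under 0.05) and 2 lower (1 with the 12 libraries alone): Abcc2 and Abcb4, the phospholipid flippase of the bile canaliculus (-0.52 ± 0.11); Abcb4 passed in all 12 fits that leave out 1 library and Abcc2 in 3 of them.

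Scd1, Elovl5 and Acly were the called genes of fatty acid synthesis, and all 3 were higher. Of 23 genes of fatty acid synthesis 3 had a higher maturation difference and 0 a lower one, 2 at an unadjusted p under 0.05 (2 higher without the third hCAR-TG day 5 and 5 without the first WT day 60 replicate; 2 with the 12 libraries alone), with a median of 0.33. Scd1, for the desaturase that makes oleate, stood at 1067, 1385 and 804 FPKM in hCAR-TG day 60 livers and 2.91, 3.08 and 2.31 FPKM in hCAR-TG day 5 livers. The gene had 622, 423 and 516 FPKM in WT day 60 livers and 3.53, 4.11 and 3.28 FPKM in WT day 5 livers. It rose steeply in both genotypes, and every hCAR-TG adult was above every WT adult (1.35 ± 0.30, adjusted p = 0.00947). Elovl5, for an elongase of polyunsaturated fatty acids, stood at 124, 151 and 130 FPKM in hCAR-TG day 60 livers and 105, 103 and 86.5 FPKM in hCAR-TG day 5 livers. In WT it had 68.0, 90.02 and 75.1 FPKM in WT day 60 livers and 165, 145 and 161 FPKM in WT day 5 livers. It rose with age in hCAR-TG and fell in WT liver (1.47 ± 0.18, adjusted p = 1.92e-05). Acly, for the enzyme that supplies cytosolic acetyl-CoA, was higher (0.80 ± 0.22, adjusted p = 0.0306) but passed in only 6 of the 12 fits that leave out 1 library. In cholesterol synthesis 3 of 25 genes were higher and 0 lower (also 0 at an unadjusted p under 0.05; 0 higher with the 12 libraries alone by limma), with a median of 0.34: Pmvk (0.81 ± 0.20), Sc5d (0.66 ± 0.16) and Acat2 (0.40 ± 0.10).

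Of 40 genes of fatty acid oxidation and targets of the fasting receptor PPARa, 0 were higher (also 0 at an unadjusted p under 0.05) and 6 lower, with a median of -0.31. The count depended on single libraries: it was 16 without the first WT day 60 replicate and 3 without the second WT day 5, the second WT day 60 or the first hCAR-TG day 60 replicate, it was 3 with rescaling by the median of ratios, and it was 0 in the limma fit of the 12 corn oil libraries alone. Ppara itself stood at 18.4, 28.1 and 26.7 FPKM in hCAR-TG day 60 livers and 50.4, 47.7 and 53.2 FPKM in hCAR-TG day 5 livers. Its level was 35.1, 46.0 and 49.6 FPKM in WT day 60 livers and 49.8, 50.6 and 58.0 FPKM in WT day 5 livers. The hCAR-TG adults were below all other libraries (-0.76 ± 0.18, adjusted p = 0.0137). The others were Angptl4, a secreted inhibitor of lipoprotein lipase (-1.07 ± 0.31), Cpt2, for mitochondrial import of fatty acids (-0.57 ± 0.11), Fabp1, for the liver fatty acid binding protein (-0.45 ± 0.13), and Hadhb (-0.40 ± 0.11) and Hadha (-0.37 ± 0.09), for the subunits of the trifunctional protein of beta oxidation.

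Some genes for protein folding in the endoplasmic reticulum (ER) had a lower maturation difference. Derl3, for a protein that helps extract misfolded proteins from the ER, had a large negative value and is not among the 27 listed genes below. It stood at 0.90, 0.67 and 0.81 FPKM in hCAR-TG day 60 livers and 0.22, 0.28 and 0.41 FPKM in hCAR-TG day 5 livers. It had 14.3, 8.9 and 8.65 FPKM in WT day 60 livers and 0.32, 0.35 and 0.24 FPKM in WT day 5 livers. Among the corn oil libraries only WT adults were above 1 FPKM, so the maturation difference of -2.66 ± 0.19 lay at day 60. A gene that passes the filter on low values through the group where it is high has to differ, so no test of Derl3 is given. Creld2, which encodes a secreted chaperone of the ER, stood at 48.7, 32.0 and 33.6 FPKM in hCAR-TG day 60 livers and 17.5, 18.9 and 18.1 FPKM in hCAR-TG day 5 livers. It measured 128, 66.8 and 73.3 FPKM in WT day 60 livers and 12.6, 13.01 and 15.8 FPKM in WT day 5 livers. The 4 groups did not overlap, and the first WT day 60 library was the highest for both genes (-1.55 ± 0.25, adjusted p = 0.000655). Of 27 genes of the unfolded protein response 0 were higher (also 0 at an unadjusted p under 0.05) and 4 lower, against 4.84% lower of all tested genes. Their median was -0.34. Of the 27, 23 had a negative value, against 6924 of all 12282 tested genes. At day 60, 8 of the 27 were lower in hCAR-TG than in WT liver, against 1.85% of all tested genes. The called members were Creld2, Herpud1 (-0.95 ± 0.23), Hyou1 (-0.91 ± 0.20) and Pdia4 (-0.62 ± 0.14), a disulfide isomerase; 10 were lower without the third hCAR-TG day 5 and 7 without the third WT day 60 replicate, and 1 with the 12 libraries alone.

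The ER stress element, CCAAT and CCACG separated by 9 bases of any kind (CGTGG, 9 bases and ATTGG on the other strand), is the site through which ATF6 and its partner NF-Y act on such genes, and for that reason the 250 bases before the start of Derl3, Creld2 and Pdia4 are shown. They are RefSeq windows (GRCm38.p6) at chr10:75893148-75893397, plus strand, chr15:88819396-88819645, plus strand, and chr6:47813513-47813762, minus strand. Capitals mark the element.
Derl3: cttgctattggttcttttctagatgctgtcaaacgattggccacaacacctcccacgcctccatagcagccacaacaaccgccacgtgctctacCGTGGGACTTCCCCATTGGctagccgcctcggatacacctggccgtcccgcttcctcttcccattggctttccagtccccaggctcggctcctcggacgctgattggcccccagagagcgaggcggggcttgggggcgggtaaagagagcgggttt
Creld2: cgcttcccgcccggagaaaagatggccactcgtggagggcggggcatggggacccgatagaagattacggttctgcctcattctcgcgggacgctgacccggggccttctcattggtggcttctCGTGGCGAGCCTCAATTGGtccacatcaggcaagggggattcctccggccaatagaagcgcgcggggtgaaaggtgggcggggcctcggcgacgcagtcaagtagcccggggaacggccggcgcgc
Pdia4: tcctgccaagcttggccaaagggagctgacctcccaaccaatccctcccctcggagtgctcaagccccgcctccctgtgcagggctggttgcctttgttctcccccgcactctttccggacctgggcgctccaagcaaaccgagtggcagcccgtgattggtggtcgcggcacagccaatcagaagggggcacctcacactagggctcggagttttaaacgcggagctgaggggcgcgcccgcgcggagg
It was found once in the Derl3 window, 156 bases before the start, once in the Creld2 window, 126 bases before the start, and not in this exact form in the Pdia4 window. Of all 32851 windows of this length 37 (0.113%) held it. Of the 27 genes of the list 24 had a window and 6 of these held the element: Creld2, Hspa5 (-0.64 ± 0.25), Hsp90b1 (-0.63 ± 0.25), Dnajc3 (-0.36 ± 0.21), Pdia6 (-0.22 ± 0.08) and Calr (-0.21 ± 0.12). By limma the adjusted p of the other 5 lay between 0.12 and 0.34, and a match is a description, not a measured site of binding. Atf6 itself lies within 1 Mb of Nr1i3. It was lower in hCAR-TG than in WT liver at day 60 (-0.42, limma adjusted p = 0.000255) and at day 5 (-0.21, limma adjusted p = 0.0393). The maturation difference of Atf6 did not pass (-0.21 ± 0.09, limma adjusted p = 0.172), and its part in the ER genes was not tested.

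Heat shock genes encode chaperones of the cytosol. Of 22 immediate early and heat shock genes 0 were higher (also 0 at an unadjusted p under 0.05) and 6 lower (3 with the 12 libraries alone), with a median of -0.54. Hsph1, for a large HSP70-like chaperone, stood at 14.2, 11.5 and 10.7 FPKM in hCAR-TG day 60 livers and 7.65, 7.47 and 5.40 FPKM in hCAR-TG day 5 livers. WT levels were 30.1, 17.8 and 16.6 FPKM in WT day 60 livers and 3.39, 3.68 and 4.71 FPKM in WT day 5 livers. The groups did not overlap: hCAR-TG was the lower genotype at day 60 and the higher one at day 5 (-1.40 ± 0.25, adjusted p = 0.00159). Hspa8, for the constitutive HSC70 chaperone, fell with age in hCAR-TG and rose in WT liver, with 284 to 356 FPKM in hCAR-TG day 60 and 363 to 479 FPKM in hCAR-TG day 5 livers, against 401 to 507 FPKM in WT day 60 and 284 to 347 FPKM in WT day 5 livers (-0.92 ± 0.16, adjusted p = 0.00135). Hspa1b (-0.95 ± 0.24), Hspa1a (-0.61 ± 0.16), Dnajb1 (-0.47 ± 0.11) and the immediate early gene Ier3 (-0.89 ± 0.17) made up the rest.

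Clock genes, which cycle over the day in liver, were divided. Of 18 such genes 3 were higher and 2 lower (7 lower without the first WT day 60 replicate, and 1 lower without the first or the third WT day 5, the third WT day 60 or the third hCAR-TG day 60 replicate; 1 higher and 0 lower with the 12 libraries alone); the labels used here give no hour of collection. Npas2, a partner of ARNTL in the activating arm of the clock, stood at 3.84, 2.67 and 3.46 FPKM in hCAR-TG day 60 livers and 0.21, 0.37 and 0.36 FPKM in hCAR-TG day 5 livers. The gene had 1.59, 1.27 and 0.54 FPKM in WT day 60 livers and 0.71, 0.51 and 0.38 FPKM in WT day 5 livers. The hCAR-TG adults were above all other libraries (1.26 ± 0.21, adjusted p = 0.000592). Arntl (0.84 ± 0.23) was also higher. Tef, for an output factor of the clock, stood at 6.47, 9.45 and 7.06 FPKM in hCAR-TG day 60 livers and 20.4, 18.6 and 29.7 FPKM in hCAR-TG day 5 livers. In WT it had 11.8, 17.3 and 25.5 FPKM in WT day 60 livers and 20.01, 23.5 and 21.5 FPKM in WT day 5 livers. The hCAR-TG adults were again outside the range of all other libraries, here below it (-1.15 ± 0.28, adjusted p = 0.0174), and Per2, for a repressor in the clock loop, was lower (-0.70 ± 0.20).

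Among 45 nuclear receptors and liver transcription factors 3 were higher and 4 lower, against 2.1% higher and 4.84% lower of all tested genes. With the 12 libraries alone 0 were higher and 1 lower. Ppard, for the PPAR of fatty acid use in many tissues, stood at 10.6, 8.38 and 9.08 FPKM in hCAR-TG day 60 livers and 3.06, 3.36 and 3.45 FPKM in hCAR-TG day 5 livers. Its level was 6.54, 2.96 and 2.74 FPKM in WT day 60 livers and 3.37, 3.09 and 3.17 FPKM in WT day 5 livers. The hCAR-TG adults were the highest and the WT ages overlapped (1.07 ± 0.23, adjusted p = 0.00731). Thra, a thyroid hormone receptor (0.45 ± 0.11), and Arnt, the partner of the dioxin receptor (0.38 ± 0.10), were also higher; of the 3, 1 was called without the first hCAR-TG day 60 replicate. Besides Nr1i3 and Ppara, Nr1h3, for the oxysterol receptor LXRa (-0.43 ± 0.09), and Hnf4a, a master factor of hepatocyte genes (-0.38 ± 0.10), were lower.

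Red cell genes had the highest share of called members among the 41 lists. Of 22 red cell precursor genes 0 were higher (also 0 at an unadjusted p under 0.05) and 19 lower in the maturation difference. Their median was -1.32. Under 1 FPKM in all WT day 5 livers were 2 of the 22, against 0 of the 22 in hCAR-TG day 5 livers. Any gene that passed the filter on low values only through newborn hCAR-TG libraries had to differ. At day 5, 20 of the 22 were higher in hCAR-TG than in WT liver, against 8.29% of all tested genes. Their summed FPKM was 1394 to 1849 in hCAR-TG day 60 and 13970 to 17326 in hCAR-TG day 5 livers, against 1855 to 2462 in WT day 60 and 5832 to 8199 in WT day 5 livers. The hCAR-TG newborns were far above the WT newborns, and the adults were close together with WT slightly higher. Slc4a1, for the band 3 anion exchanger of the red cell membrane, stood at 0.03, 0.04 and 0.04 FPKM in hCAR-TG day 60 livers and 38.5, 45.4 and 49.1 FPKM in hCAR-TG day 5 livers. It had 0.06, 0.04 and 0.05 FPKM in WT day 60 livers and 4.82, 8.97 and 14.6 FPKM in WT day 5 livers. Adults of both genotypes were near 0, and the newborn groups did not overlap (-2.25 ± 0.29, adjusted p = 6.72e-05). The erythroid transcription factors Tal1 (-1.14 ± 0.10), Gata1 (-1.14 ± 0.15) and Klf1 (-1.15 ± 0.19), the globin genes Hba-a1 (-1.66 ± 0.27) and Hbb-b1 (-1.42 ± 0.24) and the heme synthesis gene Alas2 (-0.87 ± 0.23) were all lower. The 19 calls numbered 18 to 19 when any 1 library was left out, 19 without the third hCAR-TG day 5 replicate and 17 with the 12 libraries alone.

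Of 17 neutrophil genes 0 were higher (also 0 at an unadjusted p under 0.05) and 8 lower, with a median of -0.93 (9 without the third hCAR-TG day 5 replicate, but 1 with the 12 libraries alone), and the summed FPKM was 43.0 to 75.9 in hCAR-TG day 60 and 1286 to 1625 in hCAR-TG day 5 livers, against 13.9 to 30.0 in WT day 60 and 358.9 to 917.9 in WT day 5 livers. Here hCAR-TG was above WT at both ages. Under 1 FPKM in all WT day 5 livers were 3 of the 17 genes, against 0 of the 17 in hCAR-TG day 5 livers. Any gene that passed the filter on low values only through newborn hCAR-TG libraries had to differ. Mpo, the myeloperoxidase of granulocyte precursors (-1.63 ± 0.38, adjusted p = 0.0127), Camp, for an antimicrobial cathelicidin (-1.59 ± 0.37), and Ltf, for lactoferrin (-1.52 ± 0.30), were among the lower genes. In 20 genes of Kupffer cells and other macrophages 0 were higher (also 0 at an unadjusted p under 0.05) and 4 lower (8 without the third hCAR-TG day 5 replicate, 2 with the 12 libraries alone). Marco, for a scavenger receptor, stood at 3.03, 4.65 and 4.66 FPKM in hCAR-TG day 60 livers and 284, 251 and 70.7 FPKM in hCAR-TG day 5 livers. It measured 4.68, 6.06 and 6.81 FPKM in WT day 60 livers and 52.2, 55.2 and 44.1 FPKM in WT day 5 livers. The newborns did not overlap, with the third hCAR-TG day 5 replicate nearest to WT (-2.18 ± 0.54, adjusted p = 0.0186; -2.82 without it). Lyz2 (-1.60 ± 0.30), Lyz1 (-1.43 ± 0.21) and Cd163 (-1.06 ± 0.26) were also lower. Of 13 tested lymphocyte genes 2 were higher (1 with the 12 libraries alone), the B cell gene Ms4a1 (0.67 ± 0.12) and the antibody joining chain gene Jchain (1.09 ± 0.31), and Jchain passed in 4 of the 12 fits that leave out 1 library. Of 22 sinusoidal endothelial genes 1 was lower, near the 4.84% of all tested genes: Stab1, for a scavenger receptor (-0.52 ± 0.10). Of 30 stellate cell and matrix genes 0 passed, with 6 higher and 0 lower at an unadjusted p under 0.05 by limma.

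**Figure D3:**
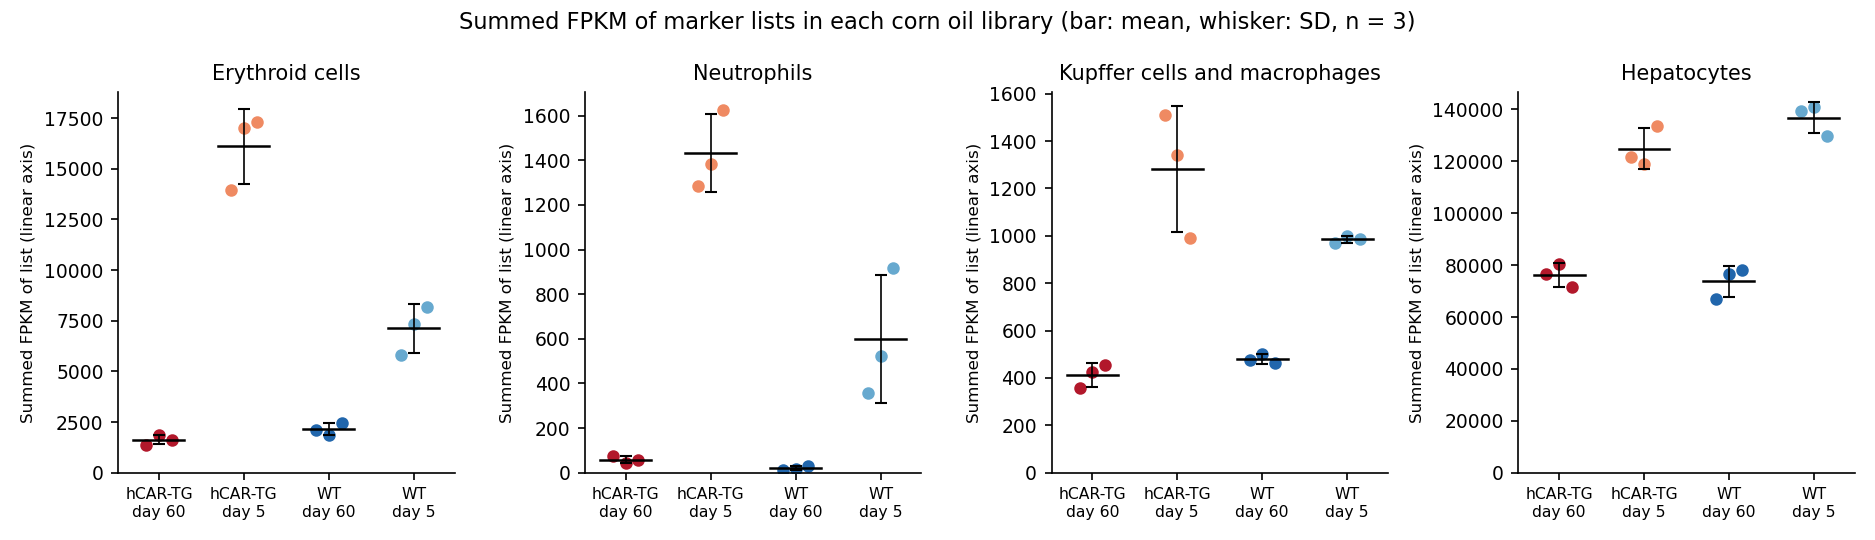
Summed FPKM of 4 marker lists on linear axes in each corn oil library, by group, with points for libraries, bars for the mean and whiskers for the SD of 3 libraries. Red cell genes sum to 13970 to 17326 in hCAR-TG day 5 livers and 5832 to 8199 in WT day 5 livers. The sum of the hepatocyte genes is lower in adults of both genotypes than in newborns. Of these 20 genes 11 rose and 6 fell with age in each genotype. Of all tested genes 24.3% rose and 47.3% fell in hCAR-TG liver, and 25.2% rose and 44.9% fell in WT liver.

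Beside these blood cell genes, the cell cycle list was lower with age in all 46 members in both genotypes. Of all tested genes 47.3% were lower with age in hCAR-TG and 44.9% in WT liver. Its maturation difference was called lower in 2 of the 46, a share near the 4.84% of all tested genes. The 2 were Rrm2 (-0.75 ± 0.22) and Cdc6 (-0.51 ± 0.13). That count was 11 without the third hCAR-TG day 5 replicate and 10 without the third WT day 5 replicate. It was 0 to 2 without any other corn oil library and 0 with the 12 libraries alone. Afp, the alpha-fetoprotein of fetal liver, stood at 0.78, 0.94 and 0.82 FPKM in hCAR-TG day 60 livers and 8353, 6618 and 9405 FPKM in hCAR-TG day 5 livers. WT levels were 0.34, 0.30 and 0.55 FPKM in WT day 60 livers and 3315, 4333 and 3685 FPKM in WT day 5 livers. It fell steeply in both genotypes and was higher in hCAR-TG than in WT livers of the same age without overlap, with a maturation difference of -0.69 ± 0.20 (adjusted p = 0.0407) that passed in 2 of the 12 fits that leave out 1 library.

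Transcripts of the gut lining appeared in newborn hCAR-TG livers. Of 30 intestinal genes 29 were in the tables and 16 passed the filter on low values; a gene that passed through the newborn hCAR-TG libraries had to differ, so no count and no test of these genes is given. The files list 0 in all 3 libraries of the group for 15 of the 29 in hCAR-TG day 60 livers and 0 of the 29 in hCAR-TG day 5 livers, against 20 in WT day 60 and 3 in WT day 5 livers. Lypd8, for a protein of the colon surface, was listed at 0 in all hCAR-TG day 60 and all WT day 60 livers and stood at 6.28, 10.8 and 16.4 FPKM in hCAR-TG day 5 livers, against 0.08, 0.16 and 1.13 FPKM in WT day 5 livers. The newborn groups did not overlap. The alpha-defensin gene Defa24 stood at 3.03, 5.95 and 14.5 FPKM in hCAR-TG day 5 livers, against 0, 0 and 0.47 FPKM in WT day 5 livers, and was listed at 0 in adults. Summed FPKM of the 29 genes was 38.4 to 45.6 in hCAR-TG day 60 and 116.7 to 282.9 in hCAR-TG day 5 livers, against 50.1 to 66.5 in WT day 60 and 79.0 to 91.8 in WT day 5 livers. Fabp6, for the bile acid binding protein of the ileum, stood at 1.12, 1.53 and 1.96 FPKM in hCAR-TG day 5 livers and was listed at 0 in the other corn oil groups. For Lypd8, Defa24 and Fabp6 the third hCAR-TG day 5 replicate was the highest.

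Some genes matured in opposite directions in the 2 genotypes. There were 50 (0.407% of tested genes) whose age changes passed in both genotypes with opposite sign, and the maturation difference passed in all 50: 22 rose in hCAR-TG and fell in WT liver, and 28 did the reverse. Car1, for the carbonic anhydrase of red cells and colon, stood at 5.03, 4.28 and 4.87 FPKM in hCAR-TG day 60 livers and 14.3, 25.5 and 40.6 FPKM in hCAR-TG day 5 livers. The gene had 7.22, 5.65 and 7.19 FPKM in WT day 60 livers and 0.75, 1.17 and 2.75 FPKM in WT day 5 livers. Newborn hCAR-TG livers were the highest and newborn WT livers the lowest (-3.82 ± 0.38, adjusted p = 2.67e-06). Cebpe, a transcription factor of late granulocyte formation, stood at 0.03, 0.02 and 0 FPKM in hCAR-TG day 60 livers and 1.61, 2.43 and 3.74 FPKM in hCAR-TG day 5 livers. In WT it had 2.41, 3.26 and 3.35 FPKM in WT day 60 livers and 0.76, 1.38 and 2.30 FPKM in WT day 5 livers. In adults hCAR-TG livers were near 0 and WT livers were not, whereas the summed neutrophil genes were higher in hCAR-TG adults (-2.51 ± 0.29, adjusted p = 1.33e-05). Cebpe lies at 50 to 55 Mb of chromosome 14, a stretch with a high share of genotype differences, and the part of this position was not tested. Cyp2c69, Cyp2c40 and Cyp3a41a above fell in hCAR-TG and rose in WT liver. Elovl5, Pnp2, for a purine nucleoside phosphorylase (1.13 ± 0.11), and Smpd3, for a neutral sphingomyelinase (1.12 ± 0.22), did the reverse. Among the 12 largest positive differences that are not described elsewhere, the Cyp2c pseudogene Cyp2c53-ps (1.65 ± 0.12) stood at 21.7 to 22.4 FPKM in hCAR-TG day 60 livers, against 6.55 to 8.55 FPKM in WT day 60 livers, and Chrna4, for a nicotinic receptor subunit (1.67 ± 0.24), at 2.22 to 5.50 FPKM in hCAR-TG day 60 livers, against 0.18 to 0.51 FPKM in WT day 60 livers. In neither gene did the adults overlap, and newborns of both genotypes were below 0.30 FPKM. Among the corn oil libraries Chrna4 reached 1 FPKM only in hCAR-TG adults. A gene that passes the filter on low values through the group where it is high has to differ, so its value is a description. Retnla, for a resistin-like protein (1.95 ± 0.49), lay at the newborn end instead, with 0.19 to 1.81 FPKM in hCAR-TG day 5 livers, against 2.49 to 7.66 FPKM in WT day 5 livers.

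**Figure D4:**
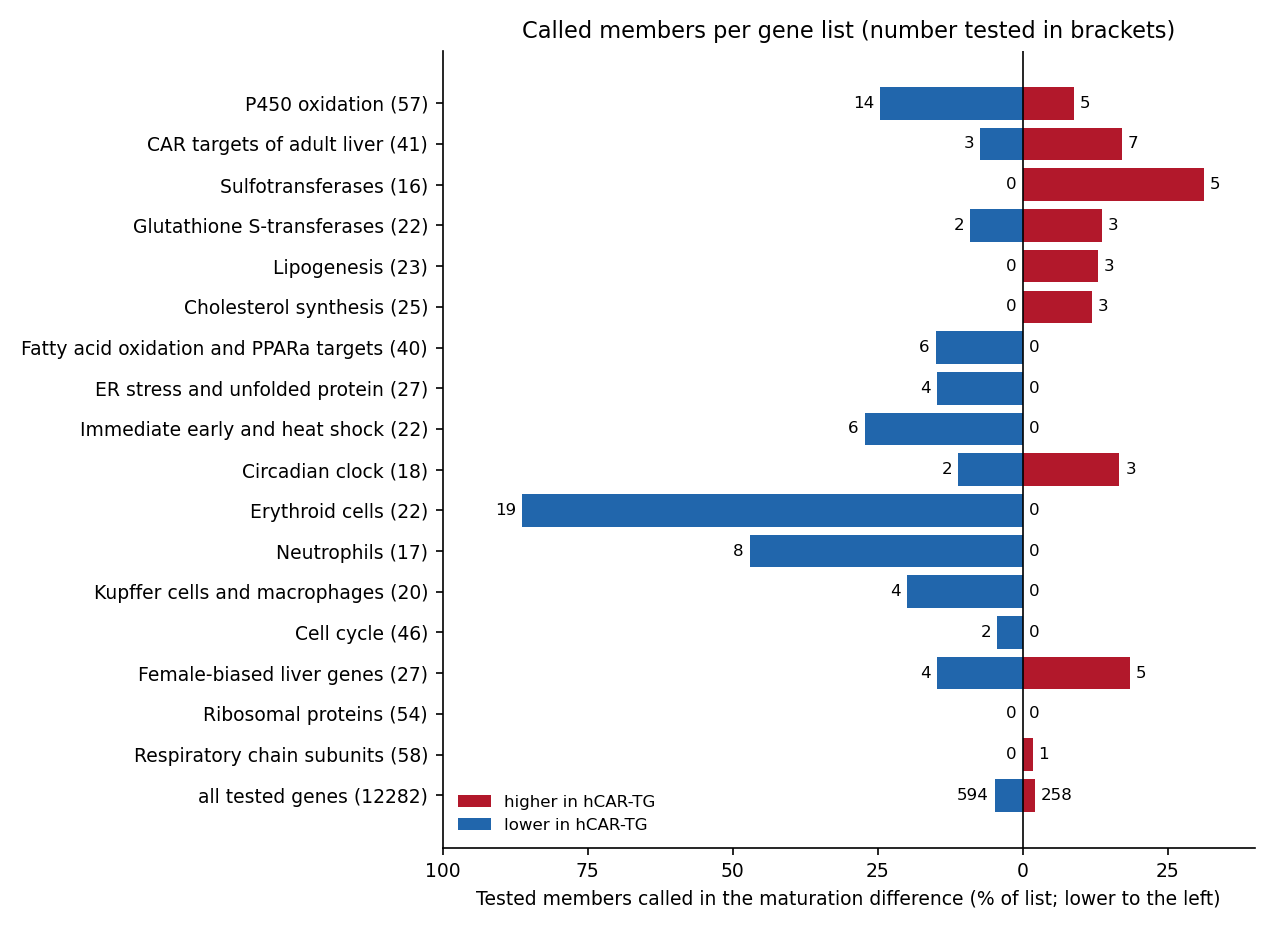
Tested members of 17 gene lists, and of all 12282 genes, that were called in the maturation difference, as a percent of the list, with higher members in red to the right, lower members in blue to the left and their number beside each bar. The erythroid list has 19 of 22 members lower and the sulfotransferase list 5 of 16 higher, against 594 lower and 258 higher of all tested genes.

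Heme and bile acid genes had a few calls. Of 28 iron, heme and metal genes 0 were higher (1 at an unadjusted p under 0.05). Lower were 3 of the 28, against 4.84% of all tested genes. The counts were 1 higher and 4 lower without the second or the third hCAR-TG day 5 replicate, and 2 lower with the 12 libraries alone. Hmox1, for the heme oxygenase that degrades heme, stood at 7.64, 10.9 and 10.8 FPKM in hCAR-TG day 60 livers and 133, 107 and 88.6 FPKM in hCAR-TG day 5 livers. Its level was 11.5, 11.8 and 10.1 FPKM in WT day 60 livers and 53.9, 55.7 and 52.7 FPKM in WT day 5 livers. The adults overlapped and the hCAR-TG newborns were above all WT newborns (-1.16 ± 0.17, adjusted p = 0.000186), and the heme synthesis gene Uros (-0.44 ± 0.10) was lower with it. Red cell genes, which also use heme, moved in the same libraries, and their part in these values was not tested. Of 15 bile acid synthesis genes Baat, for the enzyme that conjugates bile acids, was lower (-1.0 ± 0.18) and Hsd3b7, for an early step in their synthesis, was higher (0.44 ± 0.10); with the 12 libraries alone 0 of the 15 were called higher and 1 lower. Of 21 pericentral genes that depend on Wnt signalling 3 were higher (0 by limma with the 12 libraries alone): Notum (0.57 ± 0.13), Lect2 (0.58 ± 0.14) and Avpr1a (0.61 ± 0.16). Of 27 genes that are more abundant in female liver 5 were higher and 4 lower, with a median of -0.14 (11 lower without the first WT day 60, 7 lower without the third WT day 5 and 3 higher without the second hCAR-TG day 60 replicate; 3 and 3 with the 12 libraries alone): Cyp2b13, Fmo2, Sult2a1, Sult2a2 and Sult2a5 were higher, and Cyp2c69, Cyp2c40, Cyp3a41a and the cytokine receptor gene Lifr (-0.99 ± 0.18) were lower.

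Amino acid and secreted protein genes were less affected. Of 32 urea cycle and amino acid genes 3 were higher and 0 lower (also 0 at an unadjusted p under 0.05; 1 higher with the 12 libraries alone): Bhmt, the cysteine synthesis gene Cth (0.49 ± 0.12) and the arginase gene Arg1 (0.36 ± 0.10), which passed in 4 of the 12 fits that leave out 1 library. Bhmt, for the enzyme that remethylates homocysteine with betaine, stood at 1862, 1714 and 1762 FPKM in hCAR-TG day 60 livers and 985, 1012 and 879 FPKM in hCAR-TG day 5 livers. It had 1066, 818 and 943 FPKM in WT day 60 livers and 952, 1170 and 1187 FPKM in WT day 5 livers. It rose in hCAR-TG liver, and the WT ages overlapped (1.12 ± 0.22, adjusted p = 0.0032). Of 28 acute phase genes 1 was higher and 0 lower (4 at an unadjusted p under 0.05): Saa1, for serum amyloid A, stood at 310.1, 213 and 228 FPKM in hCAR-TG day 60 livers and 4.46, 3.77 and 4.66 FPKM in hCAR-TG day 5 livers. It measured 140.2, 118 and 164 FPKM in WT day 60 livers and 8.88, 15.6 and 10.3 FPKM in WT day 5 livers. The hCAR-TG livers were above the WT livers at day 60 and below them at day 5, without overlap (2.04 ± 0.49, adjusted p = 0.0174), and passed in 11 of the 12 fits that leave out 1 library. By limma 0 of 54 ribosomal protein genes passed (3 higher and 0 lower at an unadjusted p under 0.05), as did 0 of 22 gluconeogenesis and glycogen genes (3 higher and 5 lower unadjusted) and 0 of 33 histocompatibility and interferon genes (3 higher and 1 lower unadjusted). Of 58 respiratory chain genes 1 was higher, near the 2.1% of all tested genes: Ndufc2 (0.34 ± 0.09). The count was 5 without the third hCAR-TG day 5 replicate and 0 by limma with the 12 libraries alone. Of 23 tested pancreatic enzyme genes 0 passed (1 higher and 0 lower unadjusted), with a median of 1.05, and the second WT day 5 replicate had the highest sum.

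Both Pcp4l1 and Tstd1, which are among the largest positive differences, lay near Nr1i3 on chromosome 1. Pcp4l1, for a small calmodulin-binding protein, lies 31.6 kb from Nr1i3 and stood at 10.5, 12.02 and 12.02 FPKM in hCAR-TG day 60 livers and 15.8, 11.8 and 17.4 FPKM in hCAR-TG day 5 livers. WT levels were 4.33, 4.52 and 4.62 FPKM in WT day 60 livers and 65.6, 57.7 and 34.7 FPKM in WT day 5 livers. The hCAR-TG livers were between the WT ages at both times (2.90 ± 0.25, adjusted p = 3.84e-07). Tstd1, 203.3 kb away, had the same arrangement, with 38.6 to 41.4 FPKM in hCAR-TG day 60 and 70.0 to 86.2 FPKM in hCAR-TG day 5 livers, against 16.3 to 17.5 FPKM in WT day 60 and 131 to 147 FPKM in WT day 5 livers (2.02 ± 0.12, adjusted p = 2.57e-09). Tomm40l, which lies 3.8 kb from Nr1i3 and encodes a pore protein of the mitochondrial outer membrane, was lower like Nr1i3 itself (-0.84 ± 0.22, adjusted p = 0.0274). Of 37 tested genes within 1 Mb of Nr1i3 (at chr1:171213970-171218845, mm10), that gene included, 7 were called in the maturation difference (18.9%, against 6.94% of all tested genes), 19 at day 60 (51.4%, against 4.9%) and 19 at day 5 (51.4%, against 10.6%). Within 10 Mb, where 139 genes were tested, these shares were 10.8%, 17.3% and 29.5%. The part of the neighbourhood in these values was not tested.

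**Figure D5:**
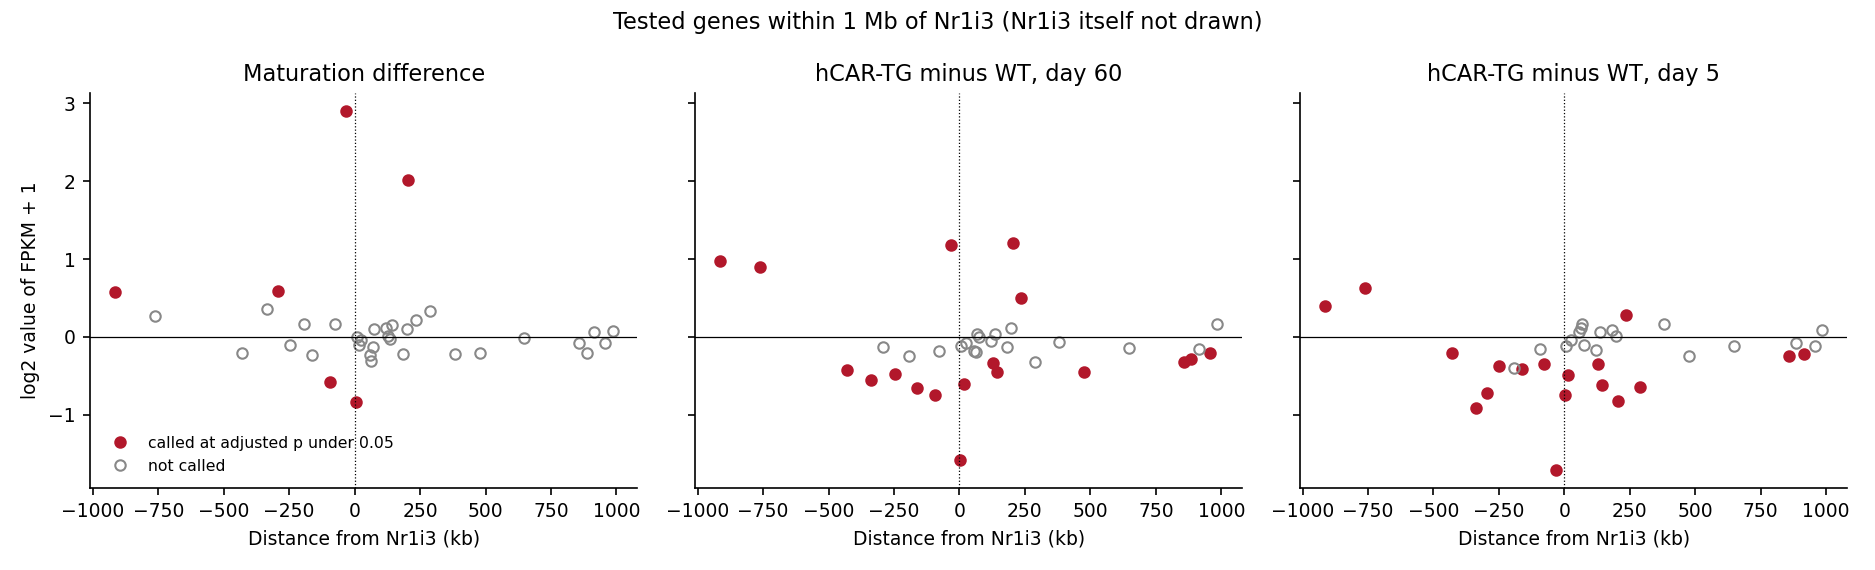
Log2 values of the tested genes within 1 Mb of Nr1i3 against their distance from it in kb, for the maturation difference, for hCAR-TG minus WT at day 60 and for hCAR-TG minus WT at day 5; filled points passed the test and open points did not. At each age called genes lie on both sides of Nr1i3 out towards the ends of the window, 19 of 37 at each age and 7 of 37 in the maturation difference, counting Nr1i3 itself, which is not drawn.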

How the data were processed

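Liver RNA was extracted with RNA Bee from flash frozen tissue and sequenced from TruSeq stranded mRNA libraries, per the labels' protocols. The authors deposited FPKM per gene for each library, on mm10 per the submitters' processing notes; the aligner, counter and annotation are not given in the sources used here, and the absolute depth is unknown. Totals were 452581 to 502499 FPKM and the relative depth, estimated from 12918 genes, 0.864 to 1.092 in the 12 corn oil libraries. Each table had 24885 entries; 279 symbols at several loci were summed, 27 date-like entries were kept apart by locus and 5 genes with a failed estimate (Ceacam1, Gm2083, Mif4gd, Mup16 and Tle1) were left out. Columns of unmapped samples numbered 0.

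Genes at 1 FPKM or more in at least 3 of 24 libraries were tested on log2(FPKM + 1), a scale that understates changes of low genes. limma (3.58.1, R 4.3.3; trend and robust) was fitted to 8 groups with 16 residual degrees of freedom, so that all groups share 1 spread, p-values adjusted by Benjamini-Hochberg across the whole table and calls at an adjusted p under 0.05. Summaries used Python 3.11.15, pandas 2.3.3 and numpy 2.4.6, and the fit was tested on simulated data. Alternatives were another pseudocount, filter, scaling, fold limit, prior, weights, sample set, replicate block, and each library left out. Replicate numbers did not pair samples.

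The rule for named genes, of which the text prints part, took Nr1i3, Nr1i2, Cyp2b10, the 12 largest called differences each way that kept their sign in every leave-one-out fit, the 8 largest of opposite direction, and up to 3 called members of each list with the lowest adjusted p; predicted genes were left out, and all other genes named were chosen after their values were seen. The contrast and the 41 lists were chosen with earlier results of these data known. Some called list members are not reported here by name.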

Additional observations from a re-analysis of the deposited data

Results flagged for a closer look

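The change with age differed between hCAR-TG and WT liver by the test of the difference itself for 258 genes that were higher and 594 genes that were lower in the maturation difference. Of the genes whose change with age passed in both genotypes with opposite sign, 8 had the largest differences. The change between day 60 and day 5 was lower in hCAR-TG than in WT liver for Car1 (-3.82), Cebpe (-2.51), Cyp2c69 (-1.83), Cyp2c40 (-1.44) and Cyp3a41a (-1.19). It was higher for Elovl5 (1.47), Pnp2 (1.13) and Smpd3 (1.12). All values are log2 differences of the changes of FPKM + 1. In newborns Car1 was higher in hCAR-TG than in WT livers, like the red cell and gut lining genes, and their part in it was not tested.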

How the results depend on the processing

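The maturation difference was called in 288 genes (92 higher, 196 lower) with the corn oil libraries alone, in 3007 (821 higher, 2186 lower) with array weights and in 165 (44 higher, 121 lower) at 2-fold or more; a filter of 5 FPKM gave 393 lower genes. The corn oil fit used fewer samples and the filter of 5 FPKM fewer genes, whereas array weights and the 2-fold limit used the same samples and genes. The cause was not tested. In the same order of settings, hCAR-TG against WT gave 254, 1579 and 56 genes at day 60 and 637, 4571 and 130 at day 5, where the filter of 5 FPKM gave 817. That filter gave 5688 genes for hCAR-TG maturation and 5568 for WT maturation, and 2-fold gave 2264 and 1995. Leaving out 1 library gave 601 to 1228 genes (181 to 362 higher, 406 to 866 lower), 8309 to 8947 for hCAR-TG maturation, 8153 to 8286 for WT maturation, 336 to 742 at day 60 and 801 to 1745 at day 5. With rescaling, 64.9% of day 5 calls were higher, against 78.5%. Of the called genes 0 reversed without any 1 library. Of 2138 values of 108 named genes under alternatives, 1895 kept their direction and call, 238 lost the call and 5 reversed. The 5 are all Nr1i2, which was not called and lay between -0.0675 and 0.2039 without 1 library; it turned negative without the first or the third WT day 5, the first WT day 60, or the first or the second hCAR-TG day 5 replicate. Same-numbered samples deviated with correlations of -0.18 to 0.138, so the numbers do not pair them; the replicate block gave 788 genes. FPKM hold no counts, so the depth behind low values is unknown.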

Other observations

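Besides the surroundings of Nr1i3, a stretch of chromosome 14 held a high share of genotype differences. It was chosen after the values were seen and is given as a description. Of 233 stretches of 5 Mb with at least 20 tested genes, chromosome 14 at 50 to 55 Mb (mm10) had the highest share of genes that differed between hCAR-TG and WT liver at day 60, 17 of 46 (37%, against 4.9% of all tested genes), and 15 of 46 at day 5 (32.6%, against 10.6%). In the maturation difference 6 of the 46 passed (13%, against 6.94% of all tested genes), which was rank 24 of the 233 stretches. Other stretches also had high shares at day 60, such as chromosome 14 at 45 to 50 Mb (22.2%) and chromosome 1 at 150 to 155 Mb (25%). The stretch that holds Nr1i3, chromosome 1 at 170 to 175 Mb, had 21 of 60 (35%) at day 60 and 26 of 60 (43.3%) at day 5. Chromosome 8 at 20 to 25 Mb, where the alpha-defensin genes lie, had 2 of 36 (5.56%) at day 60. Genes there that passed the filter on low values through the newborn hCAR-TG libraries had to differ. Its counts at day 5 and in the maturation difference are therefore not given. In the chromosome 14 stretch Psmb5, for a proteasome subunit, stood at 45.4, 41.2 and 41.9 FPKM in hCAR-TG day 60 livers and 33.3, 31.6 and 36.6 FPKM in hCAR-TG day 5 livers, against 68.6, 71.6 and 68.7 FPKM in WT day 60 livers and 44.5, 48.8 and 54.8 FPKM in WT day 5 livers. The genotypes did not overlap at either age, and the differences were -0.69 at day 60 and -0.53 at day 5. Ang, for the ribonuclease angiogenin, differed by -0.66 at day 60 and -0.65 at day 5, and Slc7a7, for an amino acid transporter, by 0.52 at day 60 and 0.70 at day 5. Cebpe lies in the same stretch, with a genotype difference of -1.97 at day 60 (limma adjusted p = 4.2e-06), as do Pnp and Pnp2.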
